A study of Mus musculus with 16 samples.

Results

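The cytosolic ribosomal proteins were taken as the genes whose symbols begin with Rpl, Rps or Rplp followed by a number, together with Rpsa, leaving out names marked as pseudogenes. A count of at least 10 in 4 or more of the 16 libraries was required. Of 16934 genes in the count table, 83 fitted the name pattern and 82 also met the count limit, 49 of the large subunit and 33 of the small subunit. Messenger RNA came from cortical neurons of C57BL/6 mouse embryos (E15 to E16), kept for 14 days in culture. The 4 groups of 4 libraries were neurons loaded with fibrils and kept alone, untreated neurons kept alone, loaded neurons cultured with microglia, and untreated neurons cultured with microglia. Loading meant 0.1 µM of Atto488-labelled α-synuclein fibrils for 16 h, and co-culture with microglia, the immune cells of the brain, lasted 6 h. No library carried a genetic change, and the labels do not say how the RNA of neurons was kept apart from that of microglia. Nor do they say that libraries came from separate cultures, so p-values rest on the spread among 16 libraries that may be technical repeats.

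Each ribosome is built from ribosomal RNA and one copy of most of these proteins, and the large subunit also carries a stalk with several copies of the acidic P proteins, which recruits elongation factors. The messages of ribosomal proteins are among the most abundant of the cell and begin with a run of C and T letters, the 5′ TOP tract, through which the kinase mTORC1 and the binding protein Larp1 set their translation and their stability. Neurons carry part of these messages into axons and dendrites, and dividing cells need more ribosomes than cells at rest.

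The start regions of 6 members are shown because the results below turn on these genes and because they differ in whether a tract was found at the RefSeq start. Each runs from 40 bases before to 30 bases after the RefSeq start (GRCm38.p6), 5′ to 3′ on the coding strand, with capitals for a TOP-like tract at the start and for the motif CCGGAAG, the core of a site for ETS family factors. A TOP-like tract was a C followed by at least 4 C or T letters that began at most 5 bases from the start.
Rps3a1: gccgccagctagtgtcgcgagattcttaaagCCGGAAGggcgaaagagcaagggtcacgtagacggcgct
Rpl11: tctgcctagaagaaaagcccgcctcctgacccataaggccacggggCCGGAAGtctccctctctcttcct
Rplp0: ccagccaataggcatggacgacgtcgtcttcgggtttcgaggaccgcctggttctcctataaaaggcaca
Rpl37: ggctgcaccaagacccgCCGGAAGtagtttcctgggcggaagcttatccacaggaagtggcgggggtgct
Rps10: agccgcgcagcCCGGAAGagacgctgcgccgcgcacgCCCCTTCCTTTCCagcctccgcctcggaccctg
Rpl13a: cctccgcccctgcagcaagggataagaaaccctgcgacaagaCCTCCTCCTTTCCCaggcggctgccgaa
They lie at chr3:86142639-86142708 (minus strand), chr4:136053364-136053433 (minus), chr5:115559427-115559496 (plus), chr15:5116573-5116642 (plus), chr17:27635215-27635284 (minus) and chr7:45128716-45128785 (minus), in the order shown. Rps10 and Rpl13a hold a tract within this window, and the other 4 sequences hold none at the RefSeq start. A promoter was found in RefSeq for 61 of the 82 members, and 30 of them (49.2%) had a TOP-like tract, against 21.2% of 27025 genes with a promoter. The motif CCGGAAG stood on either strand in the 300 bases around the start of 25 of the 61 members (41.0%), against 9.93% of all genes with a promoter. Both shares describe letters only, and a start placed a few bases away in the annotation hides a tract.

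Total counts were 6511516 to 13986374 per library, of which the ribosomal RNA precursor Rn45s took 9.35% to 26.8%, and reads came from the 3′ ends of transcripts, so that counts scaled by library size (CPM) do not depend on transcript length. The 82 members took 1.99% to 4.39% of the counts of a library. Neuron markers, 10 genes such as Tubb3 and Snap25, were present in every library at a summed level of 987 to 7038 CPM. Markers of microglia summed to 1353 CPM in replicate 1 of the loaded co-cultures and 671 CPM in replicate 1 of the untreated co-cultures, and to at most 74.7 CPM in the other 14 libraries.

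The members were abundant in all groups. Their mean levels over the 16 libraries had a median of 335 CPM, 75 of 82 averaged at least 100 CPM, and 49 stood among the 500 most abundant genes of the table. The large subunit was led by Rplp1 (1539 CPM), a P protein of the stalk, Rpl41 (1517 CPM), the smallest protein of the ribosome, Rpl37 (1061 CPM), Rpl39 (711 CPM), which lines the exit tunnel, and Rpl13a (695 CPM). The small subunit was led by Rps29 (1094 CPM), Rps28 (915 CPM), Rps21 (904 CPM), Rps26 (877 CPM) and Rps23 (804 CPM), a protein of the decoding centre. At the low end stood Rps4l (3.78 CPM) and Rpl32l (5.18 CPM), which the GENCODE annotation lists as processed pseudogenes. Next came Rps6 (35.1 CPM), the substrate of S6 kinase, which ranged from 0.587 to 76.5 CPM over the libraries. Transcripts of 10 other annotated genes share 72.2% of the sequence windows near the end of the Rps6 transcript, so its count is uncertain. The part of shared reads in the low level of Rps6 was not tested. Rps4l reached a count of 10 in 7 libraries and Rpl32l in 12, just inside the limit, while Rpl39l had no count in any of the 16 libraries and fell outside. The remaining 80 members are annotated as protein coding.

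Summed over a subunit, ribosomal protein messages were lowest in untreated neurons alone. The 49 large subunit members summed to 22104, 28046, 22174 and 16309 CPM in replicates 1 to 4 of loaded neurons alone, against 13703, 15958, 15531 and 12709.8 CPM in untreated neurons alone, in the order of replicate numbers that is kept below. In co-culture the same sum was 23054, 21115, 24974 and 19771 CPM for loaded neurons and 17634, 18586, 23167 and 16983 CPM for untreated neurons. Loaded neurons alone and untreated neurons alone did not overlap in this sum, though replicate 4 of loaded neurons lay only just above the highest untreated library, and the 2 co-culture groups overlapped.

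The 33 small subunit members were also lowest in untreated neurons alone. They summed to 16073, 20471, 15972 and 12058 CPM in loaded neurons alone, against 8934, 12374, 11428 and 9334 CPM in untreated neurons alone. With microglia they summed to 13673, 14969, 18096 and 13948 CPM in loaded cultures and to 12437, 12992, 16148 and 12448 CPM in untreated cultures. Here the lowest loaded library without microglia fell within the untreated ones, and every untreated co-culture lay above every untreated culture of neurons alone.

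On the log2 scale the large and small subunit sums were higher by 0.59 and 0.61 in loaded than in untreated neurons alone. They were higher by 0.39 and 0.37 in untreated co-culture than in untreated neurons alone. The spread between libraries of a group was 0.22 (large) and 0.23 (small), as a pooled SD of the log2 sums. Between loaded co-culture and loaded neurons alone the differences were 0.03 and −0.07, and between loaded and untreated co-culture 0.22 and 0.17, so these comparisons stayed near or within that spread. The ratio of large to small subunit sums was 1.35 to 1.39 in loaded neurons alone, 1.29 to 1.53 in untreated neurons alone, 1.38 to 1.69 in loaded co-culture and 1.36 to 1.43 in untreated co-culture. The ratio stood at 1.69 in replicate 1 of the loaded co-cultures and at 1.53 in replicate 1 of untreated neurons alone, and between 1.29 and 1.43 in the other 14 libraries.

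**Figure D1:**
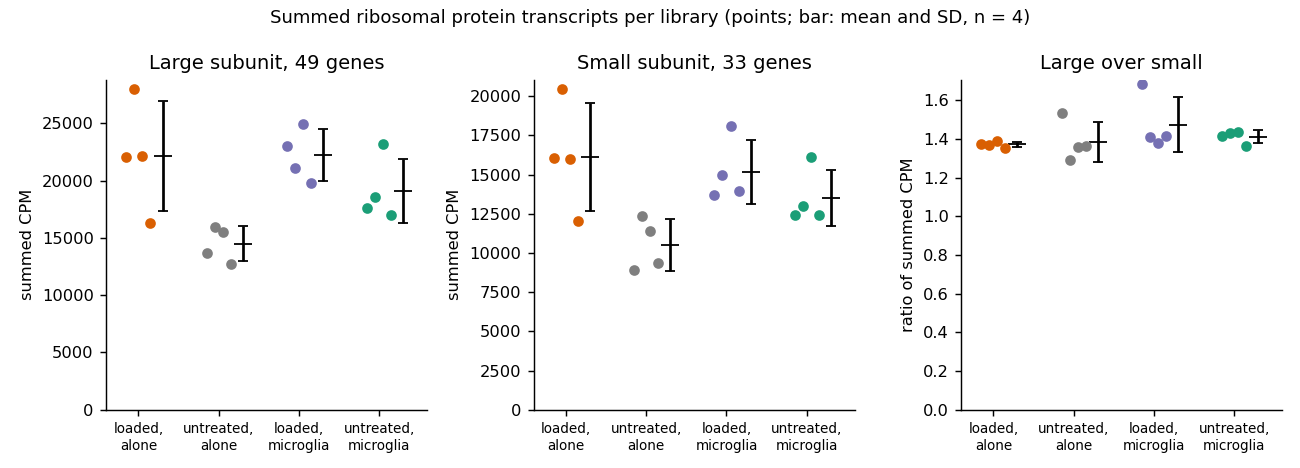
Summed CPM of the 49 large and 33 small subunit members, and their ratio, in each library (points, n = 4 per group), with mean and SD as bars. Untreated neurons alone lie lowest in both sums, between 12709.8 and 15958 CPM for the large subunit, and 1 library of the loaded co-cultures stands apart in the ratio at 1.69.

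Member by member, the mean level was lowest in untreated neurons alone for 66 of 82 genes, 38 of the large and 28 of the small subunit. The highest mean was found in loaded co-culture for 36 members, in loaded neurons alone for 27, in untreated co-culture for 16 and in untreated neurons alone for 3. The same counts were not made over all genes tested, and members share libraries and scaling, so these counts are descriptions. Single libraries also set the order: replicate 2 of loaded neurons alone had the highest value of all 16 libraries for 23 members, and replicates 1 and 4 of untreated neurons alone had the lowest for 22 and 26.

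Cell type markers differed between the same libraries, and their part in the ribosomal protein levels was not tested. Neuron markers summed to 1526, 1130, 3307 and 7038 CPM in loaded neurons alone, against 2932, 6145, 6013 and 6935 CPM in untreated neurons alone. Replicate 2 of loaded neurons, lowest of its group in neuron markers, was the highest in ribosomal protein messages, and replicate 4, highest in neuron markers, was the lowest. In untreated neurons alone replicate 1 had the fewest neuron markers, and its members summed to 22637 CPM, against 28332 CPM in replicate 2, the highest of that group. Replicate 4, with the most neuron markers of that group, had the lowest sum, at 22044 CPM. Over the 16 libraries the log2 sums of neuron markers and of the members had an r of −0.56. It was −0.25 once group means were removed. Other marker lists reached like values, with an r of 0.51 for the oligodendrocyte lineage (0.15 once group means were removed). With group means removed, r ran from −0.59 for vessels and fibroblasts, a list with no gene past the count filter, to 0.31 for dividing cells. Astrocyte markers summed to 3167 to 7380 CPM in loaded and 2129 to 6558 CPM in untreated neurons alone. Markers of the oligodendrocyte lineage did not overlap between co-cultures (4009 to 9708 CPM) and neurons alone (1093 to 3015 CPM). In co-culture neuron markers summed to 1176 to 1777 CPM with fibrils and 987 to 2713 CPM without. Markers of dividing cells summed to 1821 to 2298 CPM in untreated co-culture, against 260 to 804 CPM in untreated neurons alone, and overlapped with fibrils, at 589 to 1878 CPM in loaded co-culture and 286 to 1046 CPM in loaded neurons alone. In such bulk samples, fewer cells of a type and less RNA per cell cannot be told apart.

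**Figure D2:**
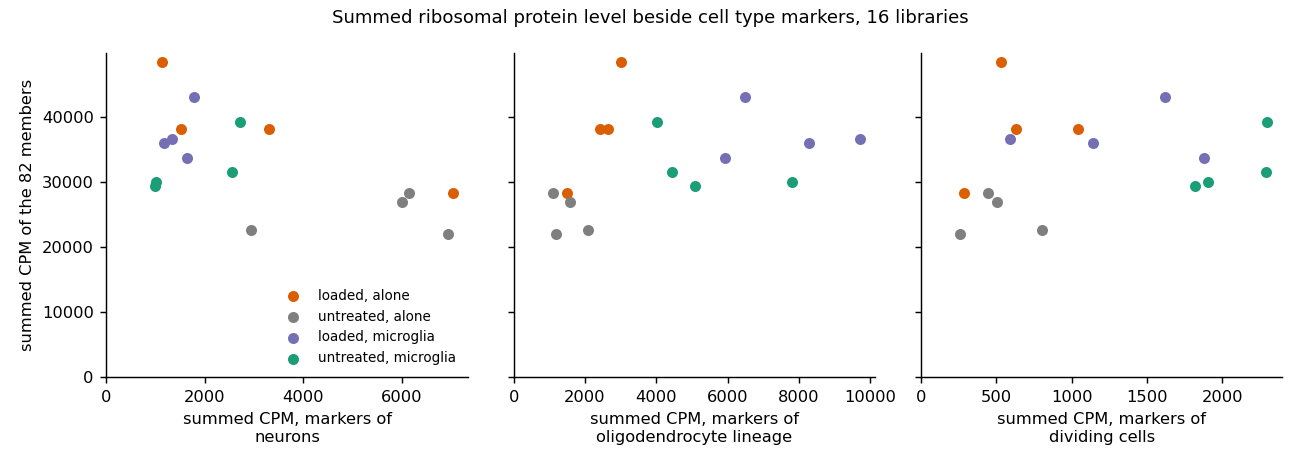
Summed CPM of the 82 members against the summed CPM of markers of neurons, the oligodendrocyte lineage and dividing cells, 1 point per library, coloured by group. The loaded library with the most neuron markers, at 7038 CPM, lies beside the untreated neurons alone, and the co-cultures lie to the right in oligodendrocyte markers.

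Fibrils in neurons alone were compared first. Of the 82 members, 70 had a log2 fold change above 0 in loaded over untreated neurons, 40 of 49 in the large and 30 of 33 in the small subunit, against 47.5% of all 13139 genes tested. The median was 0.56 for the large and 0.66 for the small subunit, against −0.06 for all genes tested. None passed an adjusted p under 0.05 in edgeR's quasi-likelihood test, where 0.0% of all genes did. At an unadjusted p under 0.05 edgeR counted 35 members, all higher, against 4.03% of all genes tested that were higher and 2.89% that were lower at that limit. All genes tested had a median level of 22.6 CPM, against 335 CPM for the members. Their SD of log2 CPM within groups had a median of 1.54, against 0.42 for the members. Shares of all genes, here and in the comparisons below, are therefore not matched in level or spread, and members also vary together. DESeq2 called Rpl37, Rplp0, Rplp1 and Rps29, among the 173 genes (1.32%) it called in all, and limma-voom called no gene (0.0% of all genes). In 17 members the 4 loaded libraries all lay above the 4 untreated ones, which held for 1.96% of all genes tested, and in no member did they all lie below, which held for 2.22%. The 35 members became 23 without replicate 3 of loaded neurons alone. Counts from fits that left out libraries, here and below, mostly stand without the share of all genes in that fit. They describe only how far the member counts moved. Without replicates 1 and 2 of the loaded neurons, the lowest of the group in neuron markers, 59 members lay above 0 and 12 had an unadjusted p under 0.05, with medians of 0.35 and 0.46 (chosen after seeing the data). In that fit 628 of 14358 genes tested had an unadjusted p under 0.05 in either direction (edgeR).

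Rps29, a zinc-binding protein of the head of the small subunit, had the smallest p in this comparison. It had 1827, 1934, 1660.3 and 1056 CPM in loaded neurons, against 431, 741, 899 and 619 CPM in untreated neurons alone, a log2 fold change of 1.27 ± 0.32 (SE) with an adjusted p of 0.486 (edgeR). All 4 loaded libraries lay above the untreated ones, the lowest being replicate 4. The stalk proteins stood beside it. Rplp1 had 2456, 3059, 2155 and 1449.8 CPM in loaded neurons, against 827, 1262, 1304 and 825 CPM in untreated neurons (1.11 ± 0.29, adjusted p = 0.532). Rplp0, the base of the stalk, had 645, 791, 567 and 482 CPM in loaded neurons, against 367, 304, 395 and 177 CPM in untreated neurons (1.00 ± 0.29, adjusted p = 0.617). Neither gene overlapped between the groups. Rplp2, which pairs with Rplp1 on the stalk, had 351, 812, 328 and 362 CPM in loaded and 61.2, 347, 407 and 299 CPM in untreated neurons, so its groups overlapped (0.73 ± 0.48, adjusted p = 0.926).

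Rpl37 and Rpl36, proteins of the large subunit, completed the 5 members with the smallest p. Rpl37 had 1263, 1633, 2001 and 826 CPM in loaded neurons, against 359.9, 839, 809 and 471 CPM in untreated neurons (1.21 ± 0.35, adjusted p = 0.617), with replicate 4 of loaded neurons inside the untreated range. Rpl36 had 438, 403, 402 and 123 CPM in loaded neurons, against 153, 162, 124 and 119 CPM in untreated neurons (1.29 ± 0.38, adjusted p = 0.617). Its replicate 4 again stood with the untreated libraries while the other 3 were far above them. At the other end, Rpl30 had the lowest log2 fold change of the members (−1.97 ± 1.59), with libraries between 0.821 and 79.3 CPM in loaded and between 32.2 and 294 CPM in untreated neurons.

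**Figure D3:**
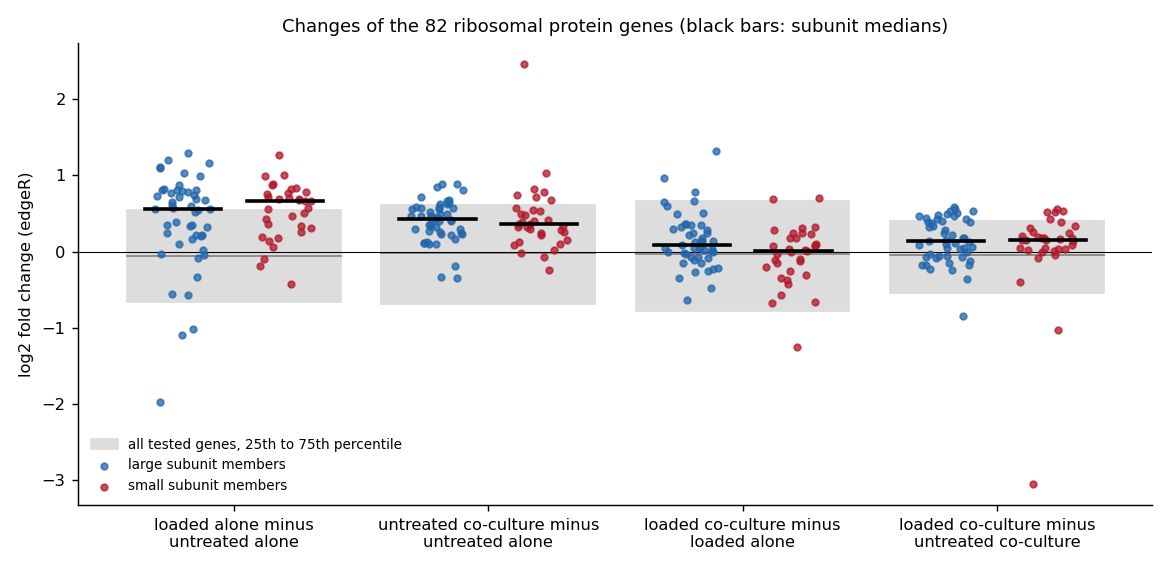
Log2 fold changes of the 49 large and 33 small subunit members (points) in the 4 comparisons, with subunit medians as black bars, the 25th to 75th percentile of all tested genes as grey boxes and their median as a grey line. The medians lie at 0.56 and 0.66 for fibrils in neurons alone, 0.43 and 0.36 for microglia without fibrils, 0.08 and 0.01 for microglia with fibrils, and 0.13 and 0.15 for fibrils in co-culture.

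Microglia without fibrils were compared next, as untreated co-culture over untreated neurons alone. Of the 82 members 76 lay above 0, 46 of 49 in the large and 30 of 33 in the small subunit, against 49.1% of all genes tested, with medians of 0.43 and 0.36 against −0.02 for all genes. No member passed in edgeR, where 0.122% of all genes did, and 14 had an unadjusted p under 0.05, all higher, against 4.60% of all genes higher and 4.51% lower at that limit. DESeq2 called Rpl11 and Rps3a1, where it called 2.25% of all genes, and limma-voom called no member, where it called 0.578% of all genes. The 14 members became 5 without replicate 3 of untreated co-culture and 6 without replicate 4 of untreated neurons alone. The groups did not overlap in 12 members, all higher in co-culture, against 3.77% of all genes tested that were higher and 3.81% that were lower without overlap. This comparison and the one before share the untreated neurons alone, whose libraries are the lowest in both. With library totals in place of TMM scaling, the median of all genes tested moved by 0.21 in this comparison, and the members' medians were 0.64 and 0.55.

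Rps3a1, a small subunit protein near the messenger RNA exit, had the smallest p. It had 397, 351, 474 and 335 CPM in untreated co-culture, against 269, 172, 200.1 and 119.5 CPM in untreated neurons alone (1.03 ± 0.31, adjusted p = 0.260 in edgeR). Rpl11, which with Rpl5 and the 5S RNA binds Mdm2 when ribosome assembly fails, had 498, 557, 674 and 628 CPM in untreated co-culture, against 284, 331, 371 and 320.3 CPM in untreated neurons alone (0.85 ± 0.26, adjusted p = 0.274). In both genes every co-culture lay above every culture of neurons alone. Rpl32 had 426, 452, 447 and 292 CPM in untreated co-culture, against 298, 228, 166 and 182 CPM in untreated neurons alone (0.89 ± 0.30, adjusted p = 0.347), with replicate 4 of the co-cultures inside the range of neurons alone. Rplp0 (0.80 ± 0.29) and Rps7 (0.78 ± 0.30), a small subunit protein also able to bind Mdm2, followed with adjusted p of 0.403 and 0.433 in edgeR.

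With fibrils present, the members of loaded co-culture lay close to those of loaded neurons alone. Of the 82 members 49 lay above 0, against 48.7% of all genes tested, with medians of 0.08 (large) and 0.01 (small) and −0.03 for all genes. No member passed in edgeR, where 0.114% of all genes did, and at an unadjusted p under 0.05 there were 2 members higher and 1 lower, against 5.46% and 6.26% of all genes. DESeq2 and limma-voom called no member, where they called 3.74% and 0.312% of all genes. The 49 members above 0 became 36 without replicate 3 of loaded co-culture, 38 without replicate 4 and 63 without replicate 2 of loaded neurons alone. The large subunit median ranged from 0.0073 to 0.24 over the fits that left out 1 library. The groups did not overlap in 2 members, both higher in co-culture, against 3.41% of all genes tested, and none lay wholly below, against 2.91%. Without replicates 1 and 2 of loaded neurons alone, 65 members lay above 0 and the medians were 0.36 and 0.24. With library totals, which moved the median of all genes by 0.21 here too, 66 members lay above 0 and the medians were 0.30 and 0.23.

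Rps3a1 had 853, 495, 538 and 364 CPM in loaded co-culture, against 345, 444, 333 and 269 CPM in loaded neurons alone (0.69 ± 0.31, adjusted p = 0.387 in edgeR), and here the groups overlapped. Rps29 lay lower, with 929, 993, 1069.6 and 1066 CPM in loaded co-culture (−0.68 ± 0.31, adjusted p = 0.405), near replicate 4 of loaded neurons alone and below the other 3. Rps15, of the head of the small subunit, was likewise lower, with 449, 327, 513 and 337 CPM in loaded co-culture and 645, 874, 711 and 352 CPM in loaded neurons alone (−0.67 ± 0.33, adjusted p = 0.435). Rpl26, a large subunit protein near the exit tunnel with the largest fold change of the members (1.32 ± 0.67, adjusted p = 0.463), ranged from 57.1 to 301 CPM in loaded co-culture and from 59.2 to 100.4 CPM in loaded neurons alone.

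Fibrils in co-culture, as loaded over untreated co-culture, were compared last of the pairs. Of the 82 members 60 lay above 0, against 47.1% of all genes tested, with medians of 0.13 and 0.15 and −0.04 for all genes. No member passed in edgeR, as for all genes (0.0%), and none had an unadjusted p under 0.05, against 3.68% of all genes. DESeq2 and limma-voom called no member either, where they called 0.989% and 0.0% of all genes. Without replicate 4 of loaded co-culture 4 members had an unadjusted p under 0.05, and without replicate 2 there were 3. The groups did not overlap in Rpl13a and Rpl28, both higher with fibrils, against 0.906% of all genes tested, and none lay wholly below, against 1.04%. Rpl13a, a large subunit protein that can leave the ribosome to repress inflammatory messages in human monocytes, had 1409.8, 782, 847 and 676 CPM in loaded co-culture, against 637, 633, 634 and 565 CPM in untreated co-culture (0.59 ± 0.29, adjusted p = 1.00). Rpl41 had 2892, 1319, 1632 and 1244 CPM in loaded co-culture, against 1489, 1066, 1149 and 1126 CPM in untreated co-culture (0.55 ± 0.29, adjusted p = 1.00). In both, replicate 1, the loaded library rich in microglia markers, stood far above the other 3.

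The difference between the microglia effects with and without fibrils, the interaction, was tested directly. Its log2 value was above 0 in 15 of 82 members, against 49.6% of all genes tested, with medians of −0.33 (large) and −0.39 (small). No gene passed in edgeR (0.0% of all genes), and 2 members, Rps29 (−1.35 ± 0.44) and Rplp0 (−1.06 ± 0.41), were lower at an unadjusted p under 0.05, against 2.35% of all genes. DESeq2 and limma-voom called no member, where they called 1.42% and 0.0% of all genes. Without replicate 4 of loaded neurons alone 8 members were lower at an unadjusted p under 0.05 in edgeR, and without replicate 1 of loaded co-culture 4 were. In the latter fit 662 of 13678 genes tested reached that limit in either direction. Rps29 averaged 1014 ± 67.1 CPM in loaded co-culture and 1619 ± 392 CPM in loaded neurons alone, against 1071 ± 426 CPM in untreated co-culture and 672 ± 198 CPM in untreated neurons alone (SD). Without replicates 1 and 2 of loaded neurons alone, 30 members lay above 0 and the medians were −0.07 and −0.22.

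Averaged over fibril state, microglia gave the single call among the members in edgeR. Rps3a1 passed in edgeR, higher in co-culture by 0.86 ± 0.22 on the log2 scale with an adjusted p of 0.0374, as 1 of 82 members, against 2.19% of all genes tested that passed and 1.22% that passed as higher. Its co-cultures ranged from 335 to 853 CPM and the cultures of neurons alone from 119.5 to 444 CPM, so the pooled ranges overlapped. The call was lost in 12 of the 16 fits that left out 1 library, where the adjusted p reached 0.0795, and without replicate 1 of both co-cultures, the libraries rich in microglia markers, where the log2 fold change was 0.73 with an adjusted p of 0.119. The 3′ end of Rps3a1 (gene at chr3:86137940-86142702, minus strand, mm10) is not unique: 67.5% of the 50-base windows in its last 200 bases occur in transcripts of 6 other annotated genes, so its count is uncertain.

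Rpl11 (0.60 ± 0.18, adjusted p = 0.0866) and Rpl32 (0.69 ± 0.21, adjusted p = 0.0883) did not pass in edgeR, while DESeq2 and limma-voom called both beside Rps3a1. These tools called 8.33% and 4.96% of all genes in this comparison, so their 3 members of 82 were no larger a share than that of all genes. Rpl6 (0.49 ± 0.19) and Rps7 (0.51 ± 0.21) came next, with adjusted p of 0.195 and 0.214 in edgeR. In all, 68 members lay above 0, against 48.6% of all genes tested, with medians of 0.27 (large) and 0.19 (small), and 8 were higher at an unadjusted p under 0.05, against 7.72% of all genes. These 8 became 5 without replicate 3 of loaded co-culture, replicate 3 of untreated co-culture or replicate 4 of untreated neurons alone. The average of the fibril effects over both cultures had 67 members above 0, against 46.6% of all genes, and medians of 0.37 and 0.41. There no member passed in edgeR, as for all genes (0.0%), and 31 had an unadjusted p under 0.05, all higher, against 3.58% of all genes higher and 3.04% lower at that limit. DESeq2 called 5 members there, against 1.96% of all genes, and limma-voom none, as for all genes (0.0%). The smallest p belonged to Rplp1 (0.79 ± 0.21, adjusted p = 0.584), followed by Rpl13a (0.70 ± 0.20), Rpl37a (0.81 ± 0.24), Rpl41 (0.68 ± 0.20) and Rpl10 (0.64 ± 0.20), a late-joining protein of the large subunit.

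**Figure D4:**
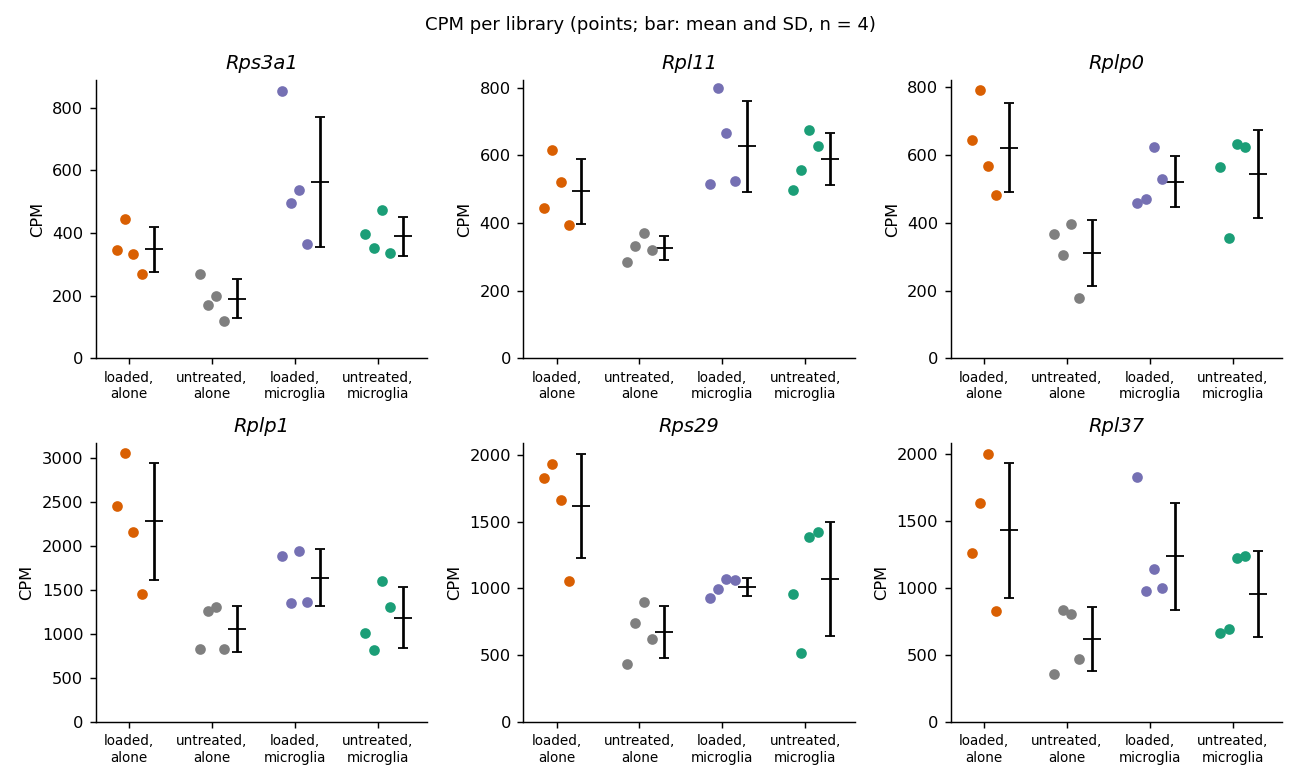
CPM of 6 members in each library (points, n = 4 per group) with mean and SD as bars. Rps3a1, the single member called by edgeR, averaged 562 CPM in loaded and 389 CPM in untreated co-culture, and Rplp0, Rplp1 and Rps29 are lowest in untreated neurons alone.

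The levels of paralogs were set against those of their partners. Rpl22l1 can take the place of Rpl22 in the large subunit, and its level was 14.4%, 11.3%, 13.7% and 25% of that of Rpl22 in loaded neurons alone, against 15.6%, 30.1%, 21.4% and 17.4% in untreated neurons alone. In co-culture it was 10.4%, 28.1%, 22.0% and 23.7% with fibrils and 21.4%, 14.4%, 25.9% and 10.9% without. Rps27l, the paralog of Rps27 that p53 induces, ranged from 23.0% to 148% of Rps27 in loaded neurons alone and from 17.7% to 210% in untreated neurons alone. Its range was narrower with microglia, 28.6% to 72.2% with fibrils and 42.3% to 68.7% without. None of the 8 comparisons of the 2 ratios passed the exact two-sided permutation test, with an adjusted p of 0.971 in each, where 4 against 4 libraries cannot go below 0.0286 before adjustment. A single ratio with fully separated groups would reach only 0.229 after adjustment, so the test could hardly pass and does not show that the ratios were alike. The log2 ratio of Rpl22l1 to Rpl22 differed most in loaded over untreated neurons alone, by −0.42 (exact permutation p = 0.257).

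Rpl7l1, a paralog of Rpl7 that acts in ribosome assembly, averaged 76.1 ± 31.3 CPM in loaded and 33.8 ± 15.3 CPM in untreated neurons alone (SD, n = 4 each). With microglia it averaged 90.3 ± 46.8 CPM with fibrils and 62.6 ± 12.1 CPM without. Its log2 fold change for fibrils in neurons alone was 1.17 ± 0.48 (adjusted p = 0.695 in edgeR), against 0.57 ± 0.31 for Rpl7. Rps4x, the X-linked form of Rps4, averaged 395 ± 101 CPM in loaded and 239.5 ± 45.6 CPM in untreated neurons alone. Its copy Rps4l was at 0, 0, 0.41 and 10.5 CPM in loaded neurons alone and at 0.234, 0.116, 6.30 and 0.22 CPM in untreated neurons alone, so that 1 library carried most of its signal in each group.

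Between libraries of one group most members varied less than the median of all genes tested. The SD of log2 CPM within groups had a median of 0.42 over the members, against 0.56 for 2769 other genes in the same range of levels and 1.54 for all genes tested. Levels were not matched within that range (log2 CPM 5.84 to 9.78), and the part of level in these differences was not tested. Rps16 and Rpl11 varied least (0.24 each), and Rpl30 (3.04), Rps4l (2.09), Rps6 (2.05), Rpl32l (1.86), Rps12 (1.31) and Rpl26 (1.25) varied most. Across the 16 libraries, the correlation of log2 CPM between pairs of members had a median r of 0.39, and of 0.27 once group means were removed, against 0.00 for pairs of the other genes in that range. These pairs share libraries, depth and cell composition, so the values are descriptions.

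**Figure D5:**
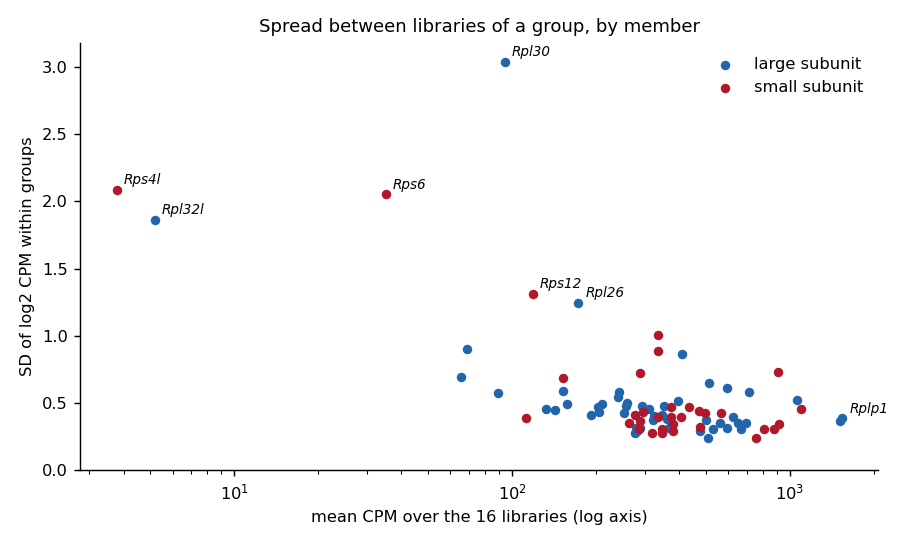
SD of log2 CPM within groups against mean CPM (log axis) for each of the 82 members, with the 6 most variable and Rplp1 named. Most members lie near 0.42, and Rpl30 at 3.04 stands apart although it averages 93.9 CPM.

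Some members had low values in the same libraries, as seen in 4 genes chosen after their values were known. Rpl30 had 64.2, 9.95, 0.821 and 79.3 CPM in loaded neurons alone, against 32.2, 246, 33 and 294 CPM in untreated neurons alone. With microglia it had 0, 31.6, 114 and 119 CPM in loaded cultures and 26.3, 194, 253 and 5.61 CPM in untreated ones. Replicate 3 of loaded neurons alone and replicate 1 of loaded co-culture, the 2 lowest libraries for Rpl30, were low in 3 further members. Rps12 had 14.5 and 15 CPM there, against 116 to 231 CPM in the other libraries of both groups. Rps2, which lies at the messenger RNA entry, had 136 and 51.6 CPM there, against 285 to 512 CPM in the other libraries of both groups. Rps27 had 151 and 85.8 CPM there, against 288 to 647 CPM in the others, and 62.5 CPM in replicate 1 of untreated neurons alone. Replicate 1 of loaded co-culture is also the library with the large to small ratio of 1.69 and the most microglia markers. Of the windows near the 3′ end, other annotated transcripts share 66.9% in Rpl30, 90.7% in Rps12, 78.1% in Rps2 and 100% in Rps27. The counts of these 4 genes are therefore uncertain, and the part of shared reads in their low values was not tested.

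Reads of many members could have been shared with copies, since ribosomal protein genes have many processed pseudogenes. Of the 82 members, 49 share at least 1 window of 50 bases in the last 200 bases with a transcript of another gene, 31 share over 50% of their windows, and Rpl10, Rpl29, Rpl36a and Rps27 share all. Rplp0, Rpl11, Rpl37 and Rpl13a share none, Rps29 39.7% and Rplp1 45.0%. The median log2 fold change for fibrils in neurons alone was 0.38 over the 31 members that share over 50% of windows and 0.68 over the other 51. For microglia without fibrils these medians were 0.32 and 0.45. The table also counts near copies under names of their own: Rpl37rt, a retrogene of Rpl37, had 785, 1068, 1467 and 494 CPM in loaded neurons alone, against 418, 701, 527 and 427 CPM in untreated neurons alone. Of the members, 28 overlap a further annotated gene, 18 of them one in the table, and strand use in counting was not stated, so reads of such neighbours cannot be told apart.

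Members with and without a tract found at the RefSeq start had like medians. A start placed a few bases away hides a tract, so this split cannot separate members that carry a tract from those that lack one. For fibrils in neurons alone the median log2 fold change was 0.56 over the 30 members with a TOP-like tract and 0.68 over the 31 without, and for microglia without fibrils it was 0.41 and 0.39. Rpl13a and Rps10, shown above with a tract, had log2 fold changes of 0.81 ± 0.29 and 1.00 ± 0.32 for fibrils in neurons alone. Rpl37 (1.21 ± 0.35) and Rplp0 (1.00 ± 0.29) were shown without one at the RefSeq start. GENCODE places the start of Rpl37 at chr15:5116645, past the end of the sequence shown, so this gene cannot be said to lack a tract.

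Ribosomal proteins under other names did not pass either. Fau, whose product is cut to the small subunit protein eS30, had 786, 1150.2, 866 and 448 CPM in loaded neurons alone, against 526, 606, 571 and 303 CPM in untreated neurons alone (0.70 ± 0.30, adjusted p = 0.695 in edgeR). Rack1, a scaffold on the small subunit, had a log2 fold change of 0.62 ± 0.30 in the same comparison. Neither passed in any of the 7 contrasts.

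For translation factors with a TOP tract, 11 of 17 lay above 0 for fibrils in neurons alone, with a median of 0.07, against 47.5% and −0.06 for all genes tested, and none passed in edgeR. Their medians were 0.20 for microglia without fibrils, 0.09 for microglia with fibrils and 0.19 for fibrils in co-culture. Eef1g, a subunit of the factor that reloads the elongation factor eEF1A, had the smallest p there (0.96 ± 0.39, adjusted p = 0.695), followed by Btf3 (0.71 ± 0.31), a subunit of the nascent chain complex. The mTORC1 and Larp list had 12 of 18 above 0 for fibrils in neurons alone, with a median of 0.12, and none passed.

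Genes of ribosome assembly had medians of −0.03 for fibrils in neurons alone (15 of 31 above 0) and 0.57 for microglia with fibrils (23 of 31 above 0). In the average of the microglia effects 24 of 31 lay above 0 with a median of 0.45, and 1 passed in edgeR, against 48.6% of all genes tested above 0 and 2.19% that passed. Nop56, a core protein of box C/D particles that guide methylation of ribosomal RNA, was higher in co-culture by 1.13 ± 0.29 (adjusted p = 0.0394 in edgeR). It had 97.8, 110.0, 124 and 111 CPM in loaded co-culture, against 18.4, 43.4, 39.5 and 47.2 CPM in loaded neurons alone. Without fibrils it had 62.1, 118, 124 and 116 CPM in co-culture, against 69.4, 27.3, 73.3 and 92.5 CPM in neurons alone. The groups were apart with fibrils and overlapped without. Ddx21, a helicase of the nucleolus (0.96 ± 0.26, adjusted p = 0.0535), and Nolc1, a nucleolar chaperone (1.01 ± 0.35, adjusted p = 0.136), did not pass. Of 10 tested genes of RNA polymerase I, which transcribes ribosomal RNA, 7 lay above 0 in this average and none passed, Taf1d coming nearest (0.95 ± 0.28, adjusted p = 0.0764). Markers of the oligodendrocyte lineage were higher in all these co-cultures. Of the markers of dividing cells, 11 of 11 lay above 0 in the averaged microglia effect, with a median of 1.58, and 4 passed in edgeR. With fibrils 11 of 11 also lay above 0, with a median of 1.11 and none passing, though their sums overlapped between those groups. The part of these markers in the result was not tested.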

How the data were processed

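The labels' protocols name a kit that reads 3′ ends, used on all 16 libraries. Raw counts, 1 row per gene symbol, were deposited by the authors and used here. Their rounded table of normalized values was set aside, since it holds the counts on another scale. Per the submitters' processing notes, STAR, Partek and DESeq2 served with mm10. No counting tool, strand setting or treatment of reads with several matches was given in the sources used here. Total counts were 6511516 to 13986374.

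From the deposited counts, genes were kept by filterByExpr (minimum count 10, total 15), leaving 13139 with all 82 members, scaled by TMM and fitted over all libraries with edgeR 4.0.16 (R 4.3.3) as 4 group means in a robust quasi-likelihood model, adjusted by Benjamini-Hochberg over all genes tested. SE is the log2 fold change over the root of F. CPM uses the TMM scaling. The fit was tested on simulated data. Groups follow the treatment labels; replicate numbers name runs of library codes. Alternatives were DESeq2 1.42.0, limma-voom 3.58.1, other scalings, no filter, a replicate block and leaving out libraries. Paralog ratios used CPM + 1. Windows and overlaps used GENCODE M21 (GRCm38). Members and lists were chosen with earlier results of these data known. Named members were those called, otherwise the 5 with the smallest p per comparison, the 5 most abundant of each subunit, the stalk, paralogs and copies. From other lists, called genes and up to 4 with the smallest p were eligible. Some members and listed genes are not reported by name here.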

Additional observations from a re-analysis of the deposited data

Results flagged for a closer look

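Among 30 measures in 4 groups each (120 sets of 4 libraries), 11 values stood apart from the other 3 libraries of their group by Dixon's criterion, which chance alone meets in about 1 set in 20. The summed CPM of small subunit members was 16148 in replicate 3 of untreated co-culture, with the others between 12437 and 12992. The large to small ratio was 1.69 in replicate 1 of loaded co-culture, with the others between 1.38 and 1.42.

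Rpl36 stood apart in 3 groups, at 123 CPM in replicate 4 of loaded neurons alone (others 402 to 438), at 529 CPM in replicate 1 of loaded co-culture (others 183 to 218) and at 258 CPM in replicate 3 of untreated co-culture (others 193 to 196). Of its windows near the 3′ end, 82.1% are shared with other annotated transcripts. Rpl37a reached 394 CPM in replicate 3 of untreated co-culture (others 272 to 282). Low values were found for Rpl13a (565 CPM) and Rpl32 (292 CPM) in replicate 4 of untreated co-culture, with the others from 633 to 637 and from 426 to 452 CPM. Rpl10 was low in replicate 2 of untreated neurons alone (284 CPM, others 354 to 367). The annotated pseudogene Rps4l stood at 10.5 CPM in replicate 4 of loaded neurons alone and at 6.30 CPM in replicate 3 of untreated neurons alone, against at most 0.41 and 0.234 CPM in the others.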

How the results depend on the processing

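The medians of both subunits kept their sign when any 1 library was left out, except microglia with fibrils in the small subunit (−0.12 to 0.13), and moved by less than the spread between libraries under most settings. Exceptions were the large subunit median for the averaged microglia effect with library totals (0.49), and, without replicates 1 and 2 of loaded neurons alone, the poorest of that group in neuron markers (added after seeing the data), 0.36 and 0.24 for microglia with fibrils and −0.074 for the large subunit interaction. Calls depended on the tool. DESeq2 called 4 members for fibrils in neurons alone (1.32% of all genes), 2 for microglia without fibrils (2.25%), 3 for the averaged microglia effect (8.33%) and 5 for the averaged fibril effect (1.96%). For the averaged microglia effect limma-voom called 3 (4.96% of all genes), library totals gave 4 (3.21%), leaving out 1 library gave 0 to 1, and leaving out replicate 1 of both co-cultures gave 0. Paralog ratios changed sign with 1 library: Rpl22l1 to Rpl22 for fibrils in co-culture ranged from −0.015 to 0.50, and Rps27l to Rps27 from −0.55 to 0.66 for fibrils in neurons alone, −0.46 to 0.72 for microglia without fibrils, −0.51 to 0.38 for microglia with fibrils and −0.44 to 0.0030 for fibrils in co-culture. The cause was not tested. Correlations of deviations between libraries sharing a replicate number had medians of −0.03 to 0.06, against −0.01 for different numbers, and did not all exceed 0.1. As a hint from the data and not the design, 9 of 16 libraries were closest to one of their own number. A replicate block left the calls at 1 for the averaged microglia effect and 0 elsewhere. Reads could have been shared with copies in 49 members, of which 31 share over 50% of their windows.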
